A study of Mus musculus with 22 samples.

Results

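The lowest of 3 doses of Mitsui7, a multiwalled carbon nanotube, was compared with vehicle in mouse lung 24 h after exposure. The comparison held 11 of the 22 arrays of the series, 6 lungs of mice given 18 µg and 5 lungs of vehicle controls, and the 5 arrays at 54 µg and 6 at 162 µg entered the same fit and served to show where the low dose differed. All mice were female C57BL/6, 8 weeks old when the experiment began, and all received 1 intratracheal instillation, a liquid bolus placed into the windpipe under anaesthesia. Controls received the vehicle alone, 0.9% NaCl with 10% BAL (lavage fluid), and the treated mice received Mitsui7 once in a suspension. RNA came from the right lung, so each value is an average over all cell types of the tissue, and fewer cells of a type cannot be told apart from less RNA per cell. Instillation delivers the whole dose at once, and no time point other than 24 h was analysed here. Lung RNA was labelled with Cy5 and hybridised on each array against a common reference RNA of 11 mouse cell lines labelled with Cy3, and a value below is the log2 ratio of lung to reference after loess normalization. A change is a difference between such values, on the log2 scale, adjusted for the slide on which the arrays lay.

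Long rigid nanotubes that reach the distal airways are known to be taken up by macrophages and to damage the epithelium. The injured lung answers with acute phase proteins, which bind debris and microbial products, and with chemokines, which call monocytes, neutrophils or eosinophils into the tissue. The airway surface is made of ciliated cells, whose beating axonemes move mucus, and of club cells, secretory cells rich in enzymes that metabolise foreign compounds. Both are shed or lose their specialised transcripts when the airway is injured, and repair proceeds through division of surviving cells. Glucocorticoids, the steroid hormones released under stress, switch on a well known set of genes in lung and also reset the circadian clock.

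The starting point of transcription holds some of the sequence that links such groups of genes, and 6 promoters of genes that changed at 18 µg are shown for the motifs that their groups are known for. Each is the 250 bases before the start of the RefSeq transcript in build GRCm38.p6, written 5′ to 3′ on the strand of the gene. For the first pair, both genes of cell division, capitals mark CCAAT, which NF-Y binds, and either TTTGAA or the rarer TTCGAA, on both strands, where the latter letters are those of the cell cycle homology element of late cell cycle genes. The window of Ncapd2, a condensin subunit that compacts chromosomes, lies at chr6:125191587-125191836 on the minus strand, and that of Cks1b, a partner of cyclin-dependent kinases, at chr3:89418292-89418541 on the minus strand.
Ncapd2: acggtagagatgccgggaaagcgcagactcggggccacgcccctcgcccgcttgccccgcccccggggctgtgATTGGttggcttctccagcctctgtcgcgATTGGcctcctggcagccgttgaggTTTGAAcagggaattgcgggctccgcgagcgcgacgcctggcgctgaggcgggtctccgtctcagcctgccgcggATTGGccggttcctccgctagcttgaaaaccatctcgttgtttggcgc
Cks1b: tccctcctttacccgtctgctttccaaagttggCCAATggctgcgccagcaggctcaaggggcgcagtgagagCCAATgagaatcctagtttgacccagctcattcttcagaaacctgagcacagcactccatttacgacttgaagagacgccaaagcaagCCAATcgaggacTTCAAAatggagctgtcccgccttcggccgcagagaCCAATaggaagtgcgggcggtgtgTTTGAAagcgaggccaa
The histone gene H2ac4, which encodes a core histone made in S phase, is shown at chr13:23750838-23751087 on the plus strand with CCAAT in capitals.
H2ac4: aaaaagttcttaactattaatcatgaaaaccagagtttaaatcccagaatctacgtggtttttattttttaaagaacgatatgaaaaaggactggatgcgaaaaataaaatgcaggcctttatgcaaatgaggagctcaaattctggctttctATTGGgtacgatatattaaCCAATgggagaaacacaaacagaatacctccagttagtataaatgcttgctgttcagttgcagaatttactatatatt
Cfap161, a gene of the ciliary axoneme, is shown at chr7:83794840-83795089 on the minus strand with GTTGCC in capitals on either strand, the shorter part of the X-box that RFX factors of ciliated cells bind.
Cfap161: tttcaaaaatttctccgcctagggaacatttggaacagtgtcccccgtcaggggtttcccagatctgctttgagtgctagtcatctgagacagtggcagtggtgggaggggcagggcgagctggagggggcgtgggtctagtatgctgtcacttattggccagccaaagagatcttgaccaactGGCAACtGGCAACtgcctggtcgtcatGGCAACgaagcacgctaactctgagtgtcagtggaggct
Ccl17, a chemokine of type 2 responses, at chr8:94810203-94810452 on the plus strand, and Retnla, a secreted product of alternatively activated macrophages, at chr16:48842359-48842608 on the plus strand, carry in capitals the STAT6 motif, TTC and GAA with 4 bases between them.
Ccl17: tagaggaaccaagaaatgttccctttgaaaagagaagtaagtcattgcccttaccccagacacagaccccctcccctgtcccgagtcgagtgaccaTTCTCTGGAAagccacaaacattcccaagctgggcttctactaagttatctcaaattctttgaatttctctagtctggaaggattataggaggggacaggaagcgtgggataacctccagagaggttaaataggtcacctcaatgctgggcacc
Retnla: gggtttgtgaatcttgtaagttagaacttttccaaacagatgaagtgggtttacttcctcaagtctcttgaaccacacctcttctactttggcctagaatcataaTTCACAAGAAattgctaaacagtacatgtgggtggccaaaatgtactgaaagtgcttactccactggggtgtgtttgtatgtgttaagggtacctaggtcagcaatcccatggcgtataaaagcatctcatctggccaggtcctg
CCAAT was found in the windows of 24 of 41 DNA replication genes (58.5%), 39 of 59 mitosis genes (66.1%) and 22 of 26 histone genes (84.6%), against 34.5% of the 27025 promoters in the table. TTTGAA was found in 35.6% of the mitosis windows and 17.1% of the replication windows against 16.3% of all, and TTCGAA in 3.39% and 4.88% against 1.34%. GTTGCC was found in 24 of 65 motile cilia windows (36.9%) against 10.5% of all. The STAT6 motif was found in 3 of 35 windows of type 2 genes (8.57%) against 5.86% of all. In the acute phase group TTCNNNGAA, the STAT3 spacing, was found in 7 of 31 windows (22.6%, against 7.18% of all) and an NF-kB motif, GGG and TTTCC with 2 bases between them, in 4 of 31 (12.9%, against 1.4%), while 0 of the 5 acute phase genes that passed the test and have a window held either. Overlapping matches were each counted as a match, the shares count a window once, and a match describes the letters of the window only.

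The genes that changed at 18 µg included acute phase and chemokine genes, which rose by up to 4.27 (Saa3), replication and mitosis genes, which rose by 0.62 to 1.52, and genes of cilia, club cells and xenobiotic metabolism, which fell, Scgb3a2 among them with a change of -2.48. In all, 420 genes passed against control in limma, with an adjusted p no higher than 0.05 and a fold no smaller than 1.5, 132 of them higher and 289 lower, with 1 gene counted in both directions through different probes. When each gene was represented by its brightest probe, 382 of 16708 expressed genes differed (2.29%), 115 higher (0.688%) and 267 lower (1.6%). In 197 of the 382, all 6 mice lay beyond all 5 controls, which the choice of these genes by the same arrays made likely. At an unadjusted p under 0.05, 1538 of the 16708 genes were higher and 2250 lower in limma, and such counts of single lists below are to be read against these. With no test, 7737 of the 16708 lay above control at 18 µg and 8971 below. Counts of list genes above or below control are to be read against these numbers, and counts that rose or fell against 0.688% and 1.6%. Over all expressed genes, with no test, all mice lay above the controls in 1.36% and below them in 2.09%. The same rule called 0.407% of genes at 54 µg (0.257% higher, 0.15% lower) and 7.63% at 162 µg (3.58% higher, 4.05% lower), and the 3 comparisons share the control arrays. The number of genes at 18 µg moved with single lungs. It was 26 without control replicate 1, 61 without control replicate 5, 51 without 18 µg replicate 5, 144 without 18 µg replicate 1, 213 without 18 µg replicate 4, 266 without 18 µg replicate 3, 269 without control replicate 3, 232 without 54 µg replicate 2, 680 without 162 µg replicate 6 and 699 without 54 µg replicate 5. All 382 genes kept their direction in each of the 22 omissions, some of which removed lungs of the higher doses. They were chosen for a large change in these same arrays, so a turned sign was unlikely from the start. Without control replicate 1, 22 of the 382 kept their call. Of 67 genes described below that passed this test, 3 (without control replicate 1) to 67 kept their call in the omissions, and Asgr1, Aldh3a1 and Nme2 kept it in all 22. The balance of rises and falls depended on the scaling: 31.4% of the genes called were higher with loess, none of 137 with median centring, and 49.2% of 127 when only the slides holding both groups were used.

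Technical measures moved with the dose in part. The median Cy5 signal over its local background was 1.52 to 2.05 in controls and 1.24 to 2.11 at 18 µg, and 70.5 to 77.7% of probes lay above background in controls against 56.8 to 77.9% at 18 µg. Of the 7 slides, 4 held both a control and an 18 µg array, and 18 µg replicates 4 and 6 lay on slides with no control. Some genes with a value below were read by 2 probes of which 1 passed. The other probe differed from control in the same direction, by 1.2 for C3, 0.29 for Ddx21, 0.59 for H4c12, 0.13 for Kdr and 0.36 for Uhrf1 among the rises, and by -0.32 for Arl4a, -0.53 for Hydin, -1.03 for Rsph4a, -0.19 for Serpinf1 and -0.34 for Trp53inp1 among the falls. The part of signal and slide in the results was not tested beyond the fits without a slide term and within the slides holding both groups.

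**Figure D1:**
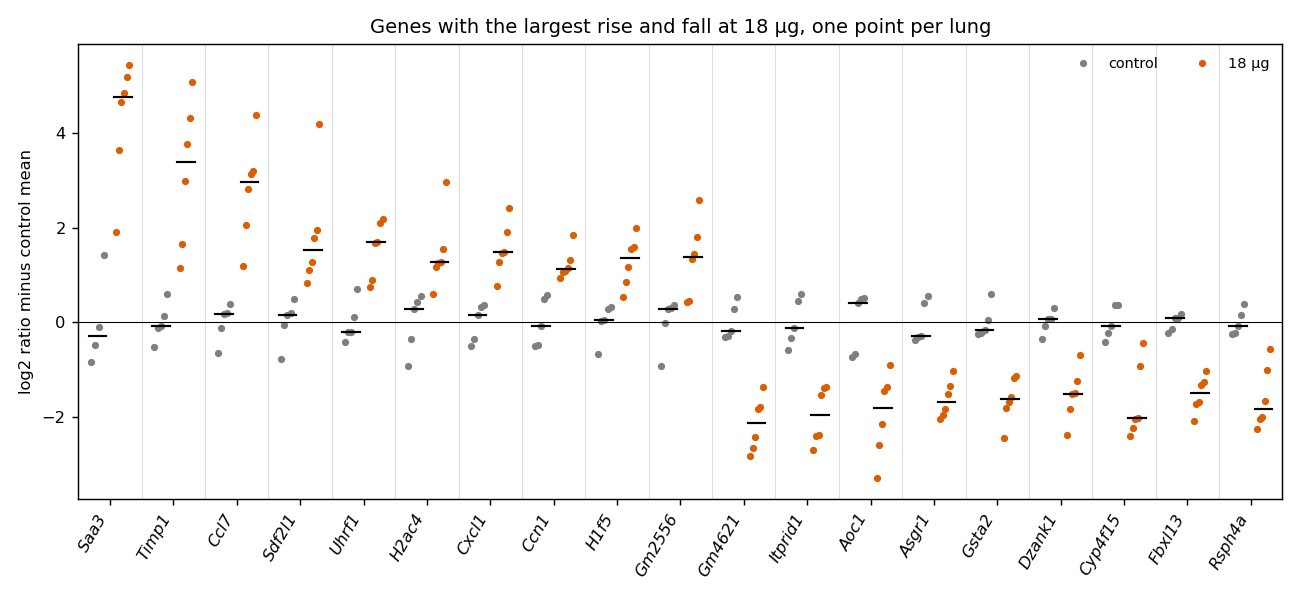
Log2 ratio of lung to reference RNA, less the mean of the controls, of the 10 genes with the largest rise and 9 of the 10 with the largest fall at 18 µg among genes whose 6 treated mice all lay beyond the 5 controls. Each point is a lung of the control or the 18 µg group and each short line a group median, and for Asgr1 the highest treated lung, at a log2 ratio of -0.42, lies below the lowest control, at 0.25.

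Acute phase, remodelling and chemokine genes were among the 10 largest rises of genes whose mice all lay above the controls, together with Sdf2l1, Uhrf1, H2ac4, H1f5 and the predicted gene Gm2556. Serum amyloid A3 (Saa3), an acute phase protein made by lung epithelium and macrophages, was at -4.18, -1.93, -3.83 and -3.43 in the 4 controls with a usable spot, and its lowest, median and highest values at 18 µg were -1.43, 1.41 and 2.10. It rose by 4.27 (standard error 0.67, adjusted p = 0.0114), with every treated lung above every control. Tissue inhibitor of metalloproteinases 1 (Timp1), which restrains matrix breakdown, stood at -2.41, -2.36, -1.69, -2.79 and -2.15 in controls and between -1.13 and 2.79 at 18 µg, around a median of 1.10. Its rise was 3.17 (standard error 0.59, adjusted p = 0.0199), again without overlap. The monocyte chemokine Ccl7 lay at -4.04, -4.57, -3.74, -3.72 and -3.53 in controls and ranged from -2.74 through a median of -0.95 to 0.46 at 18 µg, a rise of 2.75 (standard error 0.64, adjusted p = 0.0434). The neutrophil chemokine Cxcl1 was well above background in 3 of 5 controls and 5 of 6 treated lungs, and its values of -4.37, -5.19, -5.03, -4.53 and -4.32 in controls lay below the range of -3.93 to -2.26 at 18 µg (median -3.21). It rose by 1.42 (standard error 0.31, adjusted p = 0.0352), against 2.29 at 54 µg and 2.59 at 162 µg. Ccn1, a matrix protein induced by stretch and injury, rose by 1.24 (standard error 0.23, adjusted p = 0.0197) from control values of -1.42, -2.38, -2.39, -1.97 and -1.33 to between -0.97 and -0.06 at 18 µg (median -0.78).

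Of 40 expressed acute phase genes, 7 rose and 0 fell at 18 µg (Saa1, Saa3, Lcn2, C3, Cfb, Serpina3m and Timp1), and their median change was 0.41 against -0.02 for all expressed genes. Complement component C3, the hub of the complement cascade, was at 2.10, 2.01, 2.78, 2.48 and 1.90 in controls and at 2.69 to 4.16 at 18 µg (median 3.65), a rise of 1.38 (standard error 0.28, adjusted p = 0.0271) with 5 of 6 lungs above all controls. The protease inhibitor Serpina3m rose by 1.11 (adjusted p = 0.0323), with 3 of 6 lungs above all controls, and lipocalin 2 (Lcn2), which starves bacteria of iron, rose by 1.14 (adjusted p = 0.0485). Factor B (Cfb), the protease of the alternative complement pathway, rose by 0.90 (adjusted p = 0.0346). The median change of this group was 0.96 at 54 µg and 1.19 at 162 µg. In 10 of the 40 genes the level at 18 µg was below the mean of the higher doses, against 1.84% of all expressed genes. These were Orm1, Orm2, Orm3, Hpx, Serpina3m, Fgg, Mt1, Mt2, Slc39a14 and Cebpd, among them transport proteins, a fibrinogen chain and metallothioneins. Serpina3m was up by 2.52 at 54 µg and 3.64 at 162 µg, a difference of the low dose from their mean of -1.97 (adjusted p = 0.000224).

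Among 27 expressed chemokines and growth factors of monocytes and neutrophils, 2 rose (Ccl7 and Cxcl1) and 0 fell, with a median change of 0.42. This list had medians of 0.415 at 54 µg and 0.616 at 162 µg, where 8 genes rose and 0 fell. Ccl2, the main ligand of CCR2 on monocytes, was at -4.43, -3.90, -4.03, -4.48 and -3.54 in controls and at -3.14 to -0.56 at 18 µg (median -1.86). All 6 lungs lay above all controls, with a difference of 2.02 (standard error 0.49) that did not reach the threshold (adjusted p = 0.0504). Csf1, which sustains macrophages, differed by 0.53 (adjusted p = 0.0362; negative with no normalization) and stayed under the fold required. Of 22 neutrophil genes 0 passed the test (limma, unadjusted p under 0.05 in 0 higher and 3 lower), and their list level, the median over the genes relative to the control mean, ranged from -0.62 to 1.56 in controls, with replicate 2 highest, and from -0.40 to -0.03 at 18 µg. Their median change of -0.08 turned positive with the Cy5 channel alone and became 0.29 without control replicate 2.

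Type 2 immunity is the response of eosinophils and alternatively activated macrophages. Of 46 of its genes expressed, 5 rose at 18 µg (Ccl17, Retnla, Arg1, Chil3 and Slc26a4) and 0 fell, with a median of 0.29 that became -0.02 with no normalization, when the median of all genes was -0.42. Ccl17, which attracts T helper 2 cells through CCR4, was at 2.15, 2.16, 1.93, 3.02 and 2.36 in controls and at 2.91 to 4.87 at 18 µg (median 4.23). Its rise of 1.75 (standard error 0.32, adjusted p = 0.0174) stood beside 1.78 at 54 µg and 1.46 at 162 µg, and 5 of 6 lungs lay above all controls. Retnla was at 4.77, 5.37, 5.10, 6.16 and 4.86 in controls and at 5.17 to 7.99 at 18 µg (median 6.62), a rise of 1.51 (standard error 0.33, adjusted p = 0.0325) with 4 of 6 lungs above all controls. Arginase 1 (Arg1), which diverts arginine to ornithine, rose by 2.06 (adjusted p = 0.0407), and the chitinase-like protein Chil3 rose by 1.73 (adjusted p = 0.0457).

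Slc26a4 (pendrin), an anion exchanger that airway epithelium makes under type 2 cytokines, was at 2.69, 1.69, 3.61, 4.46 and 2.08 in controls and at 2.38 to 7.39 at 18 µg (median 6.17). It rose by 3.06 (standard error 0.73, adjusted p = 0.0481), and replicate 6 alone of the treated lungs lay within the controls. The eotaxin Ccl24, which draws eosinophils through CCR3, was above all controls in 6 of 6 lungs, from -2.90, -3.37, -3.32, -1.96 and -2.50 to between -1.92 and 3.75 (median 1.43). The difference of 3.79 (standard error 0.96) did not pass the threshold (adjusted p = 0.0586). Ccl11, the other eotaxin, differed by 2.01 (standard error 0.63, adjusted p = 0.118), with 5 lungs above all controls and replicate 6, at 0.50, below them. Ccl22, the second ligand of CCR4, was not well above background on any array of the groups and differed by 0.12 (adjusted p = 0.782), a value that turned negative with no slide term and with no normalization. Of 8 expressed eosinophil genes, 0 passed the test (1 higher and 1 lower at an unadjusted p under 0.05 in limma), with a median change of 0.34 (-0.01 with no normalization), and the eosinophil list level of -0.13 to 0.64 at 18 µg overlapped that of -0.29 to 0.17 in controls.

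Of 50 expressed genes of DNA replication 47 lay above control and 14 rose at 18 µg, with 0 falling, and the median change was 0.47, which turned to -0.09 with no normalization beside -0.42 for all genes. The rises were those of Mcm2, Mcm3, Mcm6, Mcm10, Gins1, Gins2, Rfc4, Fen1, Uhrf1, Rrm2, E2f8, Ccne1, Dtl and Asf1b. Mcm2, a subunit of the replicative helicase, was at -3.08, -3.27, -2.60, -2.50 and -2.63 in controls and at -2.46 to -1.12 at 18 µg (median -1.82). It rose by 0.96 (standard error 0.16, adjusted p = 0.0132), with no overlap. Mcm10, which starts the helicase, rose by 0.85 (standard error 0.14, adjusted p = 0.0137) from -3.09, -3.02, -2.80, -2.96 and -2.84 to between -2.56 and -1.56. Uhrf1, which carries DNA methylation to the new strand, rose by 1.52 (standard error 0.31, adjusted p = 0.026), and Rrm2, the regulated subunit of ribonucleotide reductase, by 1.21 (adjusted p = 0.0317). The list level per lung was -0.11 to 0.13 in controls and 0.29 to 0.76 at 18 µg, and the groups did not overlap.

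Of 72 expressed genes of mitosis and the spindle, 67 lay above control and 9 rose (Ccna2, Ccnf, Cdk1, Tpx2, Cdca5, Cdca8, Cks1b, Shcbp1 and Ncapd2), with 0 falling and a median of 0.45 (-0.01 with no normalization). Cdca5 (sororin), which holds sister chromatids together, was at -4.02, -3.91, -3.47, -3.64 and -3.80 in controls and at -3.34 to -2.12 at 18 µg (median -2.95), a rise of 0.94 (standard error 0.18, adjusted p = 0.0225) in 6 of 6 lungs. Ncapd2, whose promoter is shown above, was measured in 5 of 6 treated lungs, all above the controls, and rose by 0.62 (standard error 0.13, adjusted p = 0.0307). Cks1b rose by 0.90 (standard error 0.19, adjusted p = 0.0322), with 5 of 6 lungs above all controls. The list levels were -0.14 to 0.21 in controls and 0.09 to 0.88 at 18 µg, with replicate 2 lowest among the treated. Of 32 expressed histone genes that are transcribed in S phase, 26 lay above control, 3 rose (H1f5, H2ac4 and H4c12) and 0 fell, with a median of 0.39 (0.01 with no normalization). The histone genes H2ac22 and H3c14, which that list does not hold, rose by 1.04 (adjusted p = 0.0325) and 1.14 (adjusted p = 0.0348). Of 40 ribosome biogenesis genes, 38 lay above control and 2 rose, Utp4 by 0.63 (adjusted p = 0.0164) and the nucleolar helicase Ddx21 by 0.75 (adjusted p = 0.0397), with a median of 0.26 that turned negative with median centring and with no normalization (-0.20). The ribosome list had medians of 0.32 at 54 µg and 0.38 at 162 µg, where 10 genes rose and 1 fell.

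Calls in these lists rested on the scaling and on single lungs. The 14 replication and 9 mitosis genes became 0 and 0 with median centring, and 0 and 0 without control replicate 1, where the medians were still 0.44 and 0.37. The 9 mitosis genes became 26 without 162 µg replicate 6, and 0 without control replicate 5, 18 µg replicate 3 or 18 µg replicate 5. The 14 replication genes became 3, 4 and 1 in those omissions. The 3 histone genes became 10 without control replicate 2 and 0 without control replicate 1, control replicate 5, 18 µg replicate 3 or 18 µg replicate 5. The acute phase genes numbered 0, 2 and 1 without control replicate 5, 18 µg replicate 3 and 18 µg replicate 5, and the cilia genes that fell numbered 0 without control replicate 5 or 18 µg replicate 5. Without control replicate 1 the acute phase, chemokine, type 2 and cilia lists held 0 calls as well, and the club, xenobiotic and nucleotide lists held 2, 2 and 1.

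Cell cycle inhibitors and p53 targets are set beside these lists. Of 27 expressed, 1 rose, the stress cytokine Gdf15 (by 0.68, adjusted p = 0.0225), and 1 fell, Trp53inp1 (by 0.93, adjusted p = 0.0309), with a median of -0.04. The kinase inhibitors Cdkn1a, Cdkn1c and Cdkn2b and the stress gene Gadd45g were below the mean of the higher doses, by differences of -1.02, -1.07, -0.59 and -0.74.

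**Figure D2:**
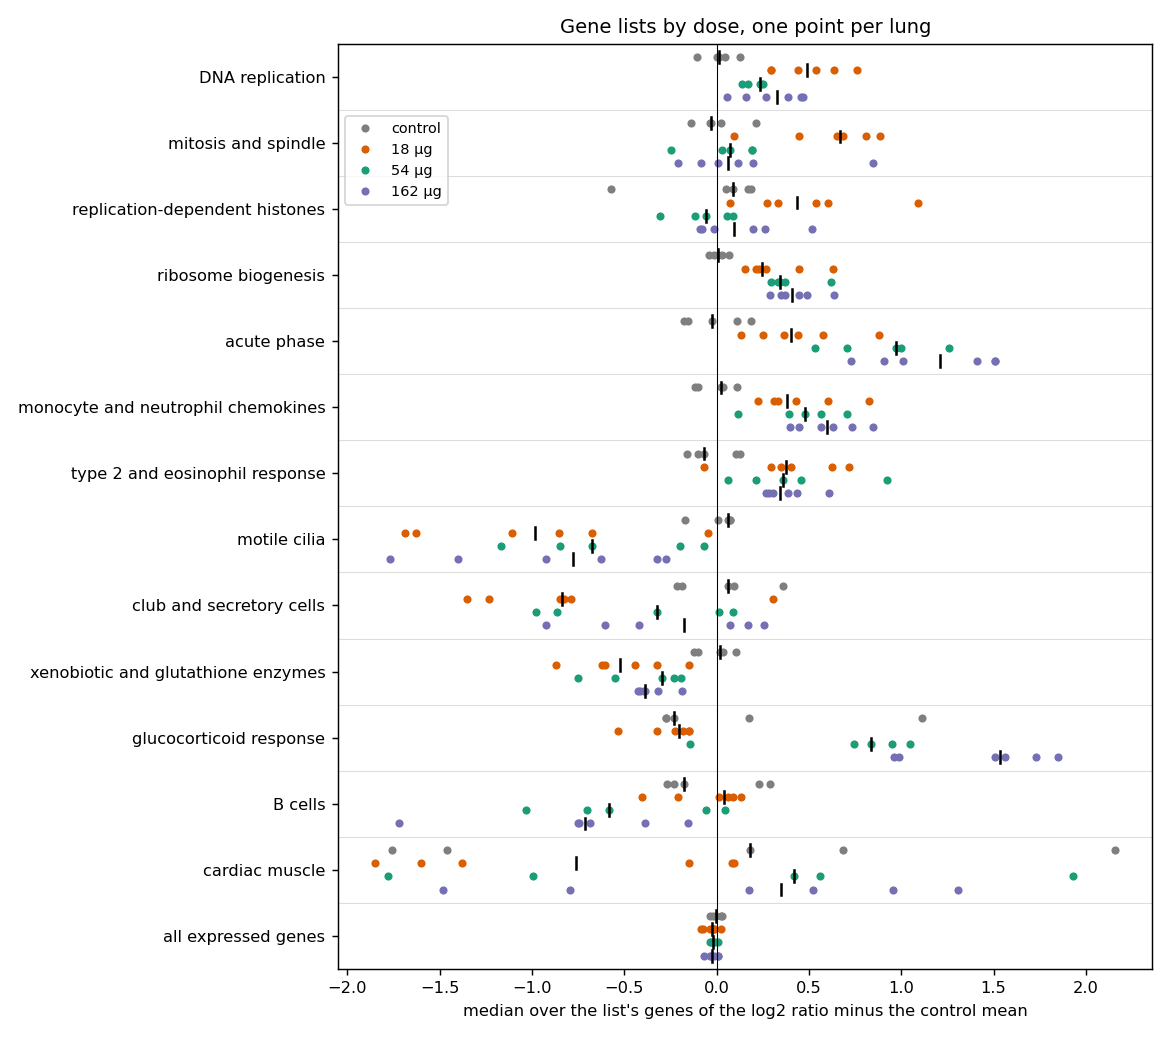
Level of each gene list in each lung, as the median over the list's expressed genes of the log2 ratio minus the mean of the controls. Points are lungs and black ticks are group medians. At 18 µg the replication, ribosome biogenesis and chemokine lists lie above all controls and the xenobiotic list below them. The cilia and club lists at 18 µg include 1 lung at the level of the controls. The replication list also lies above all controls at 54 µg (0.14 to 0.25 against at most 0.13). The chemokine list does so at 54 µg (from 0.115 against at most 0.113) and at 162 µg. The ribosome biogenesis list also lies above all controls at 54 µg and 162 µg. The xenobiotic list also lies below them at 54 µg and 162 µg.

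Of 82 expressed genes of motile cilia, 79 lay below control at 18 µg, against 8971 of all 16708 genes. Of the 82, 14 fell, against 1.6% of all genes, while 1, the tubulin Tubb6, rose. The median change was -0.89, and it stayed between -1.10 and -0.75 in the alternatives run. The -1.10 came with no normalization, when the median of all genes was -0.42, so a fall was unlikely to turn there. At 54 µg the list median was -0.349, with 0 genes falling, and at 162 µg -0.835, with 32 falling. The low dose differed from the mean of the higher doses in 0 of the 82. Among the genes that fell at 18 µg were Myb, Ccdc40, Rsph4a, Tekt4, Cfap70, Cfap161, Ak8, Hydin, Lrrc6, Zmynd10, Mns1, Lrrc46 and Ropn1l. Rsph4a, a head protein of the radial spokes that time the ciliary beat, was at 2.75, 3.37, 3.12, 2.72 and 2.90 in controls and at 0.71 to 2.40 at 18 µg (median 1.15), a fall of 1.41 (change -1.41 ± 0.27, standard error, with adjusted p = 0.0207) in 6 of 6 lungs. Cfap161 was at 2.35, 2.17, 2.25, 2.75 and 2.24 in controls and at 0.35 to 2.17 at 18 µg (median 1.07), a change of -1.26 (standard error 0.22, adjusted p = 0.0153), with replicate 3 within 0.01 of the lowest control. Hydin, a protein of the central pair of the axoneme, fell by 1.14 (standard error 0.20, adjusted p = 0.0173), and here only 3 of 6 lungs lay below all controls. Ccdc40, which spaces the dynein arms, fell by 1.11 (standard error 0.20, adjusted p = 0.0192), and Myb, a transcription factor that starts the ciliated programme, fell by 1.01 (standard error 0.21, adjusted p = 0.026), each with 5 of 6 lungs below all controls.

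The lungs at 18 µg differed widely in this list. Its level was -1.69 in replicate 6, -1.63 in replicate 5, -1.11 in replicate 1, -0.85 in replicate 4, -0.68 in replicate 2 and -0.05 in replicate 3, against -0.17 to 0.07 in controls. Replicate 3 thus lay among the controls. Among the largest falls were also cilium-associated genes outside the list. Dzank1, linked to transport in cilia, changed by -1.53 (standard error 0.24, adjusted p = 0.0105), with 2.19, 1.92, 2.34, 2.58 and 2.33 in controls and -0.10 to 1.59 at 18 µg. Fbxl13, a ciliary subunit of the dynein regulatory complex, changed by -1.43 (standard error 0.24, adjusted p = 0.0142), from 2.32, 2.56, 2.54, 2.64 and 2.24 to between 0.38 and 1.44.

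Of 30 expressed genes of club and secretory cells 27 lay below control, with 4 falling (among them Scgb3a2, Aldh1a1 and Aldh3a1), 0 rising and a median of -0.81 (-1.11 to -0.69 in the alternatives run). The -1.11 came with no normalization, when the median of all genes was -0.42. The list median was -0.37 at 54 µg and -0.41 at 162 µg, and 3 genes were below the mean of the higher doses. Secretoglobin 3A2 (Scgb3a2), a secreted product of club cells, was at 7.07, 7.88, 7.28, 7.35 and 7.50 in controls and at 3.39 to 7.55 at 18 µg (median 4.48). Its fall of 2.48 (standard error 0.58, adjusted p = 0.0446) came from 5 lungs below all controls, while replicate 3, at 7.55, lay inside their range. The list level of replicate 3 was 0.31 against -1.35 to -0.79 in the other 5 lungs and -0.21 to 0.36 in controls. Aldehyde dehydrogenase 3A1 (Aldh3a1), which clears reactive aldehydes, was at 0.44, 0.57, 0.60, 1.55 and 0.52 in controls and at -0.82 to 0.79 at 18 µg (median -0.26). It fell by 1.03 (standard error 0.12, adjusted p = 0.0017), and its call held in all 22 omissions of a lung. Aldh1a1, which makes retinoic acid, fell by 1.11 (standard error 0.23, adjusted p = 0.031). Without 18 µg replicate 3 the median change was -1.05 for cilia and -0.90 for club genes, and 17 cilia and 4 club genes fell.

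Enzymes of xenobiotic and glutathione metabolism, many of them club cell products, fell in 16 of 68 cases and rose in 0, with 62 below control and a median of -0.46 that did not turn in the alternatives run (-0.82 to -0.38). The -0.82 came with no normalization, when the median of all genes was -0.42, so a fall was unlikely to turn there. Those that fell included Cyp2a4, Cyp2s1, Cyp4f15, Por, Gsta2, Gstm1, Gstm6, Mgst1, Aldh1a1, Aldh3a1, Aldh3b1, Ephx1, Ces1e, Ces1g and Sult1d1, of which Aldh1a1 and Aldh3a1 are in the club list too. The glutathione transferase Gsta2 was at 2.01, 1.16, 1.46, 1.19 and 1.26 in controls and at -1.02 to 0.27 at 18 µg (median -0.21), a change of -1.79 (standard error 0.29, adjusted p = 0.0107). Cytochrome P450 reductase (Por), which feeds electrons to all microsomal P450 enzymes, was at 2.02, 1.30, 1.68, 1.46 and 1.44 in controls and at 0.02 to 0.98 at 18 µg (median 0.51), and fell by 1.08 (standard error 0.17, adjusted p = 0.0107). Cyp4f15, a fatty acid hydroxylase, changed by -1.46 (standard error 0.29, adjusted p = 0.0246), also with no overlap. The list level was -0.12 to 0.11 in controls and -0.87 to -0.15 at 18 µg. The median change was -0.32 at 54 µg and -0.38 at 162 µg, and 3 genes were below the mean of the higher doses. The 24 targets of NRF2, the sensor of oxidative stress that shares part of this enzyme set, had 0 genes past the threshold in limma (2 higher and 2 lower at an unadjusted p under 0.05) and a median of 0.01, which turned negative in most of the scalings run and was -0.55 with no normalization.

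Other wide falls with all mice apart were less easily grouped. Asgr1, a galactose-binding receptor best known from liver, was at 1.18, 0.33, 0.31, 0.25 and 1.01 in controls and at -1.43 to -0.42 at 18 µg (median -1.06). It changed by -1.80 (standard error 0.17, adjusted p = 0.000221), was well above background in 4 of 6 treated lungs, and stood at -2.05 and -1.95 at 54 µg and 162 µg. Its call held in all 22 omissions. Itprid1, a protein with an inositol trisphosphate receptor-interacting domain, changed by -1.86 (standard error 0.30, adjusted p = 0.0107), and Aoc1, the diamine oxidase that degrades histamine, by -1.82 (standard error 0.41, adjusted p = 0.0378), the latter beside -0.37 at 54 µg and -0.69 at 162 µg. Aoc1 did not pass the limma test against the mean of the higher doses (difference -1.29, adjusted p = 0.0561). The predicted gene Gm4621 changed by -1.99 (standard error 0.32, adjusted p = 0.0118).

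Enzymes that make or convert nucleotides moved in both directions, with 31 of 59 expressed genes above control, 5 rising, 2 falling and a median of 0.01 that turned negative with median centring and with no normalization. The rises were in synthesis and phosphorylation. Nme2, a nucleoside diphosphate kinase, was at -0.97, -0.80, -0.57, -0.30 and -0.60 in controls and at -0.19 to 0.40 at 18 µg (median 0.28). It rose by 0.74 (standard error 0.11, adjusted p = 0.00656) in 6 of 6 lungs, with a call that held in all 22 omissions. CTP synthase (Ctps) rose by 1.12 (standard error 0.25, adjusted p = 0.0362) beside 1.66 at 54 µg and 1.91 at 162 µg, and the uridine-cytidine kinase Uck2 by 0.85 (standard error 0.16, adjusted p = 0.0225) in 6 of 6 lungs.

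The falls were in Ak8 and Entpd8. The adenylate kinase Ak8, an axonemal enzyme that is also in the cilia list, was at 2.81, 2.18, 2.36, 2.71 and 2.48 in controls and at 0.56 to 2.40 at 18 µg (median 1.19), a change of -1.14 (standard error 0.27, adjusted p = 0.046), with replicate 3 inside the controls. Its change was -0.68 at 54 µg and -0.99 at 162 µg. Entpd8, an ectoenzyme that hydrolyses extracellular ATP and UTP, was at 2.73, 2.57, 2.13, 1.13 and 1.59 in controls and at 0.31 to 1.92 at 18 µg (median 0.75). It changed by -0.94 (standard error 0.17, adjusted p = 0.0164), with 4 of 6 lungs below all controls, 5 of 6 well above background, and -1.09 and -1.33 at the higher doses. Its relative Entpd2 was below all controls in 6 of 6 lungs, and its change of -0.94 (standard error 0.27) did not pass the threshold (adjusted p = 0.0934). Nme5, an axonemal member of the nucleoside diphosphate kinase family, changed by -0.87 (adjusted p = 0.289), with 5 lungs below all controls and replicate 3 above them.

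The higher doses were used to ask what the low dose had of its own. Of the 382 genes, 33 also passed the test at 54 µg and 209 at 162 µg, and 173 passed at 18 µg alone. Passing at 1 dose only does not show a difference between doses: of the 173, 28 differed from 162 µg and 1 from 54 µg in the direction of their change. Directly compared, the low dose differed from 162 µg in 1002 genes (349 higher and 655 lower at 18 µg), from 54 µg in 8, and from the mean of both higher doses in 503 (155 higher, 349 lower, 1 of them in both directions). By brightest probe 899 genes differed from 162 µg (5.38% of expressed genes, 1.9% higher and 3.48% lower), 7 from 54 µg (0.0419%, with 0.012% higher and 0.0299% lower) and 447 from the mean (2.68%, with 0.838% higher and 1.84% lower). With no test, 7948 of the 16708 expressed genes lay above that mean at 18 µg and 8760 below. Counts of list genes above or below the mean of the higher doses are to be read against these numbers. The 8 genes that differed between 18 µg and 54 µg were Ccn2, Gm28856, Mt2, Pip5k1a, Rgcc and Tmtc1, lower at 18 µg, and Pou2af1 and Trim59, higher at 18 µg. The largest distance among them was that of Mt2, at -2.39. This number was 0 to 71 when single lungs were left out (0 without control replicate 3, 71 without 54 µg replicate 1). The 503 genes became 257 without 18 µg replicate 4 and 317 without 18 µg replicate 5.

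A gene was taken to be particular to the low dose where it differed both from control and from the mean of the higher doses and lay further from control than they did. There were 27 such genes, 18 higher and 9 lower at 18 µg, and 20 of them differed from 162 µg alone and 1, Pou2af1, from 54 µg alone. At 54 µg 0 of them passed the test against control, and at 162 µg 1 did, Tubb2b, which was lower there. Of all expressed genes 0.407% passed at 54 µg and 7.63% at 162 µg. The rule that chose these genes made few passes at the higher doses likely, so these counts are no separate support. All 27 had the same direction in each of the 4 slides that held both groups, and in 14 all mice lay apart from the controls. Both counts come from the arrays by which the genes were chosen, so neither is separate support. All 27 also kept both directions in every omission, which their choice by these arrays made likely. The number that kept both calls was 1 without control replicate 1 and 1 without 18 µg replicate 5, and at most 27. Another 4 genes differed from control and from the higher doses but lay nearer to control than they did (Gm2045, Gm3459, Gm4499 and Serpina3m).

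**Figure D3:**
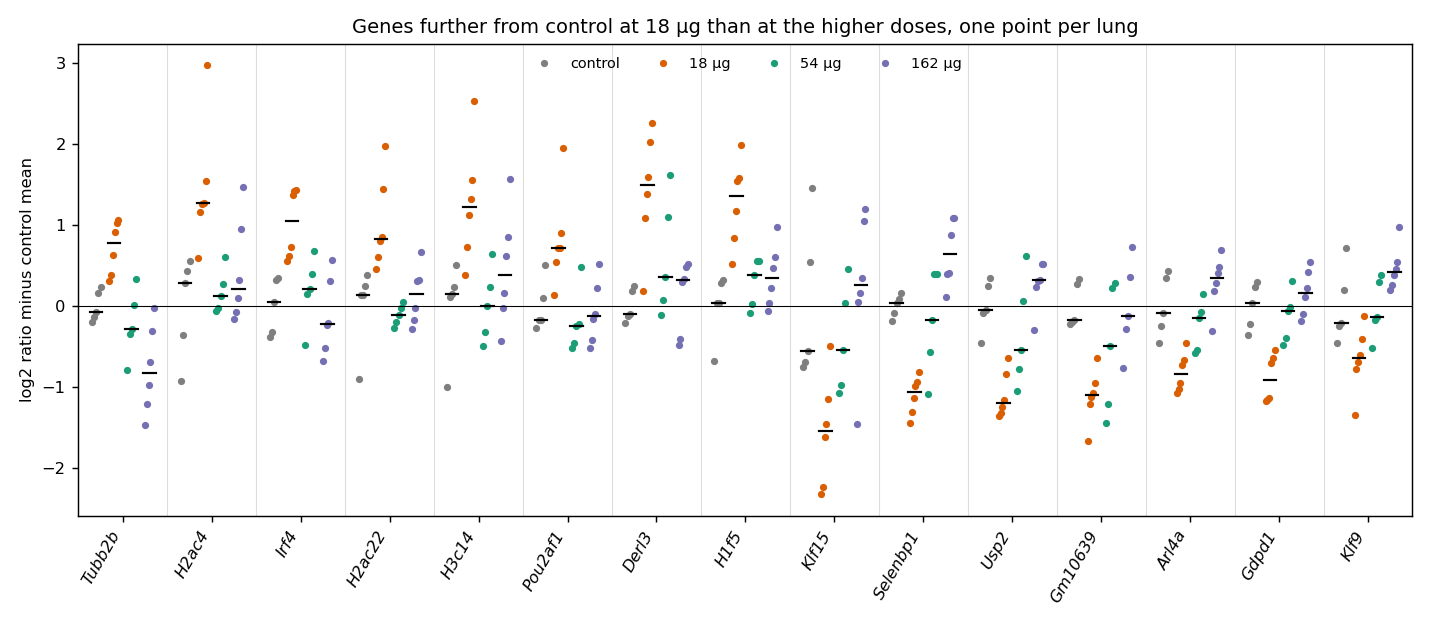
Log2 ratio of lung to reference RNA, less the mean of the controls, of genes with the largest difference among those that differed at 18 µg both from control and from the mean of the higher doses, by lung and dose. Points are lungs and short lines group medians, and Usp2 lies below control at 18 µg in all 6 lungs, with changes of -1.28 at 18 µg, -0.53 at 54 µg and 0.14 at 162 µg.

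Of the 18 genes that were higher, 12 belong to cell division or are histones. Ccna2, Cdk1, Cdca5, Cdca8, Tpx2, Shcbp1 and E2f8, which act in S phase or mitosis, are among them, and H1f5, H2ac4, H2ac22 and H3c14 are histones. Cyclin A2 (Ccna2), which drives S phase and entry into mitosis, was at -4.21, -4.00, -3.54, -3.50 and -3.33 in controls and at -3.39 to -1.82 at 18 µg (median -2.83). It rose by 0.94 (standard error 0.21, adjusted p = 0.0374) beside -0.04 at 54 µg and 0.14 at 162 µg, and differed from their mean by 0.89 (adjusted p = 0.0124). Of the 72 mitosis genes, 71 lay above the mean of the higher doses and 13 passed the test (Ccna2, Cdk1, Bub1, Tpx2, Birc5, Cenpe, Spc25, Cdca5, Cdca8, Mki67, Shcbp1, Aspm and Sgo1). Of all 16708 expressed genes, 7948 lay above that mean and 0.838% passed the test as higher. The mitosis list had medians of 0.45, -0.10 and 0.09 at 18 µg, 54 µg and 162 µg, while the replication list had 0.47, 0.16 and 0.30 and 1 gene past the test against the mean (E2f8). The 13 became 0 with median centring, 3 without 18 µg replicate 4, 4 without 18 µg replicate 3 and 28 without 162 µg replicate 6.

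Among histones, H1f5, a linker histone, was at -5.13, -4.41, -4.17, -4.42 and -4.13 in controls and at -3.93 to -2.46 at 18 µg (median -3.10). Its rise was 1.16 (standard error 0.23, adjusted p = 0.0259) against 0.14 at 54 µg and 0.26 at 162 µg, a difference from their mean of 0.95 (adjusted p = 0.0158). H2ac4 was at -3.43, -2.22, -2.08, -2.87 and -1.95 in controls and at -1.91 to 0.46 at 18 µg (median -1.24), and rose by 1.43 (standard error 0.34, adjusted p = 0.0448) against 0.24 and 0.35, a difference of 1.13 (adjusted p = 0.0419). Both had all treated lungs above all controls. Histone genes are near copies of each other, so a probe may also read its paralogs, and each histone value is uncertain in that respect. The β-tubulin Tubb2b, best known from brain, rose by 0.74 (standard error 0.16, adjusted p = 0.0309) from -1.52, -1.89, -1.82, -1.45 and -1.76 to between -1.38 and -0.63. Of its 2 probes this was the brighter, and the other differed from control by 0.00407. The brighter probe was at -0.14 at 54 µg and -0.66 at 162 µg relative to control, a difference of 1.14 (adjusted p = 0.000553), and all 22 omissions left that difference past the test.

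The other 6 that were higher were Tubb2b, Pou2af1, Irf4, Derl3, Hc and Phgdh. Pou2af1, a coactivator of immunoglobulin transcription in B cells and plasma cells, was at -2.32, -3.10, -2.72, -3.00 and -3.00 in controls and at -2.69 to -0.87 at 18 µg (median -2.11), with 5 of 6 lungs above all controls. It rose by 0.86 (standard error 0.15, adjusted p = 0.0142) beside -0.30 at 54 µg and 0.09 at 162 µg, a difference from their mean of 0.96 (adjusted p = 0.000887) that held in all 22 omissions. Irf4, a transcription factor of plasma cells and alternatively activated macrophages, was at -2.58, -3.02, -2.95, -2.31 and -2.29 in controls and at -2.08 to -1.20 at 18 µg (median -1.58). It rose by 0.95 (standard error 0.21, adjusted p = 0.0336) against 0.01 and -0.13, with a difference of 1.02 (adjusted p = 0.00485). Derl3, which removes misfolded proteins from the endoplasmic reticulum of secretory cells, rose by 1.28 (standard error 0.27, adjusted p = 0.0307) beside 0.52 and 0.13. Sdf2l1, another protein of endoplasmic reticulum stress, rose at 18 µg by 1.92 (standard error 0.44, adjusted p = 0.0428), with replicate 3 highest at 3.00, and did not pass the test against the higher doses (difference 0.97, adjusted p = 0.196). Complement component 5 (Hc), whose cleavage frees a chemoattractant, rose by 0.68 and differed from the higher doses by 0.78 (adjusted p = 0.00259), and Phgdh, the entry enzyme of serine synthesis, rose by 0.62.

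Of the 9 genes that were lower, Klf9 is in the glucocorticoid list and Usp2 in the clock list. Klf9, a transcription factor induced by glucocorticoids, was at 1.5, 2.67, 2.15, 1.70 and 1.75 in controls and at 0.61 to 1.83 at 18 µg (median 1.31), with 4 of 6 lungs below all controls. It fell by 0.66 (standard error 0.13, adjusted p = 0.0271) beside 0.01 at 54 µg and 0.41 at 162 µg, a difference from their mean of -0.86 (adjusted p = 0.000905). Klf15, a metabolic regulator of the same family and also a glucocorticoid target, was at 1.99, 4.13, 3.21, 1.91 and 2.11 in controls and at 0.34 to 2.18 at 18 µg (median 1.13), and changed by -1.20 (standard error 0.28, adjusted p = 0.0437) against 0.03 and 0.42. Usp2, a rhythmic deubiquitinase, was at 0.97, 0.57, 0.53, 0.87 and 0.17 in controls and at -0.74 to -0.02 at 18 µg (median -0.58), with all 6 lungs below the controls and a change of -1.28 (standard error 0.23, adjusted p = 0.0164), against -0.53 and 0.14. Selenbp1, a methanethiol oxidase, was at 5.11, 5.24, 5.16, 4.99 and 4.89 in controls and at 3.63 to 4.27 at 18 µg (median 4.02). It changed by -1.0 (standard error 0.20, adjusted p = 0.0249) beside -0.08 and 0.67, and its difference from the higher doses, -1.29 (adjusted p = 0.000905), held in all 22 omissions. Also lower were Arl4a, a small GTPase, Fry, a large scaffold protein of cell morphogenesis, Gdpd1, a lysophospholipase, and the predicted gene Gm10639, with changes of -0.86, -0.77, -0.84 and -1.26.

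Of the 30 lists, that of glucocorticoid-induced genes had the largest median distance between the low dose and the mean of the higher doses, -1.33. Against control, 1 of 19 rose (Lcn2) and 1 fell (Klf9) at 18 µg, with a median of -0.24 (-0.75 with no normalization), while the medians were 0.74 at 54 µg and 1.22 at 162 µg. In 15 of the 19 the level at 18 µg was below the mean of the higher doses, against 1.84% of all expressed genes. In the alternatives run 7 to 16 were so (9 without 18 µg replicate 4). The 15 were Fkbp5, Tsc22d3, Sgk1, Zbtb16, Per1, Pdk4, Klf9, Mt1, Mt2, Errfi1, Cdkn1a, Cdkn1c, Angptl4, Hif3a and Sult1a1. Mt1 and Mt2 are also in the acute phase list, and Cdkn1a and Cdkn1c in that of cell cycle inhibitors. Per1 is also in the clock list and Sult1a1 in the xenobiotic list, so these differences are counted in more than 1 list. Metallothionein 2 (Mt2), which binds zinc and copper, was at -3.42, -2.67, -3.23, -3.57 and -3.24 in controls and at -2.53 to -0.82 at 18 µg (median -1.83), above all controls in 6 of 6 lungs. Its difference from control of 1.4 (standard error 0.38) did not pass the threshold (adjusted p = 0.0721), and at 54 µg and 162 µg it was higher than control by 3.79 and 4.79. The low dose was below their mean by a difference of -2.89 (adjusted p = 0.000407). Zbtb16, a zinc finger factor that glucocorticoids induce, was at 3.1, 4.64, 4.32, 1.76 and 1.76 in controls and at 0.91 to 2.47 at 18 µg, with a change of -1.39 (adjusted p = 0.203) and a difference from the higher doses of -2.60 (adjusted p = 0.00465). The list level was -0.54 to -0.15 at 18 µg and -0.28 to 1.11 in controls, where replicate 2 was highest. Without that control the median change at 18 µg was -0.06, and 15 of 19 genes were below the mean of the higher doses.

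Of 20 expressed clock genes, 1 fell against control (Usp2) with a median of -0.17, and 5 were below the mean of the higher doses (Per1, Per2, Cry2, Tef and Usp2). Per2, a repressor of the clock, changed by -0.60 against control (adjusted p = 0.102) and differed from the higher doses by -1.08 (adjusted p = 0.00146). Cry2, its partner, was at 1.61, 1.98, 1.85, 1.72 and 1.69 in controls and at 0.78 to 1.41 at 18 µg (median 1.31). All 6 lungs were below all controls, with a change of -0.64 (standard error 0.16) that did not pass the threshold (adjusted p = 0.0579), and the difference from the higher doses was -0.66 (adjusted p = 0.0155). Tef, an output factor of the clock, differed from the higher doses by -1.06 (adjusted p = 0.00659). The hour of instillation and of collection of each mouse was not given in the sources used here.

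**Figure D4:**
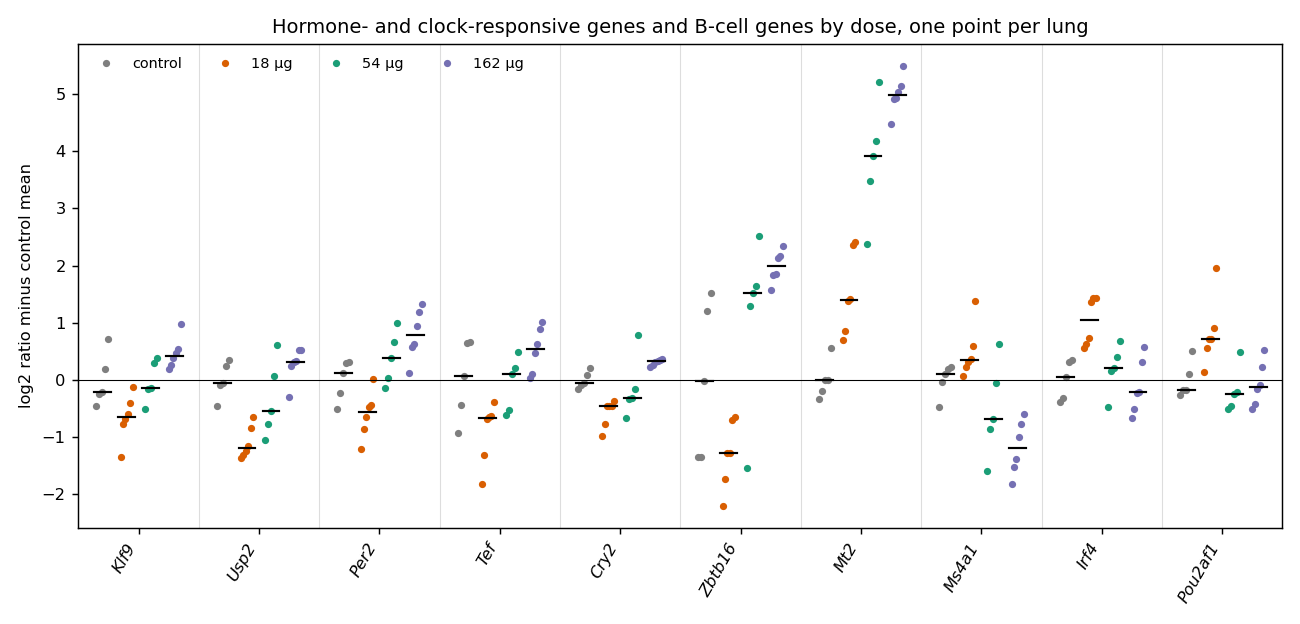
Log2 ratio of lung to reference RNA, less the mean of the controls, of Klf9, Usp2, Per2, Tef, Cry2, Zbtb16, Mt2, Ms4a1, Irf4 and Pou2af1, by lung and dose. Points are lungs and short lines group medians. The 6 lungs at 18 µg lie below all 6 at 162 µg for at least Klf9, Usp2, Mt2, Zbtb16 and Per2 and above them for Ms4a1.

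B cell genes did not pass the test against control at 18 µg (0 of 15 in limma, 3 higher and 1 lower at an unadjusted p under 0.05, median 0.27, which was -0.10 with no normalization) and had medians of -0.47 at 54 µg and -0.63 at 162 µg. All 15 lay above the mean of the higher doses, against 7948 of all 16708 expressed genes. The test against that mean passed 5 of the 15, against 0.838% of all, among them Ms4a1, Cd79b, Spib and Tnfrsf13c. Ms4a1, the B cell surface protein CD20, was at 0.42, -0.28, 0.29, 0.15 and 0.37 in controls and at 0.25 to 1.57 at 18 µg (median 0.53). It differed from control by 0.72 (standard error 0.20, adjusted p = 0.078), lay below control by 0.47 at 54 µg and 0.89 at 162 µg (changes of -0.47 and -0.89), and differed from their mean by 1.4 (adjusted p = 0.000603). Of 46 interferon-induced genes 0 passed against control in limma (7 higher and 0 lower at an unadjusted p under 0.05), with a median of 0.18 that turned negative with median centring and was -0.32 with no normalization, and 5 were above the mean of the higher doses (Ifi203, Gbp2, Gbp3, Gbp4 and Cd74). T and NK cell genes passed in 0 of 23 cases against control in limma (2 higher and 1 lower at an unadjusted p under 0.05), with a median of -0.07 that turned positive with the Cy5 channel alone and with both channels quantile normalized, and 1 of them, the kinase Lck, was above the mean of the higher doses.

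The markers were those of lung. Of the lists for club, type II alveolar, type I alveolar and endothelial cells, 30 of 35, 21 of 21, 16 of 17 and 24 of 24 genes were expressed. At 18 µg, 2 of 21 type II genes rose (Hc and the chitinase Chia1), 0 of 16 type I genes passed the test in limma (1 higher and 0 lower at an unadjusted p under 0.05), and 1 of 24 endothelial genes rose, the VEGF receptor Kdr (by 0.65, adjusted p = 0.0479). Their medians of 0.17, 0.15 and 0.17 turned negative with median centring and were -0.34, -0.37 and -0.27 with no normalization. Alveolar macrophage genes rose in 1 of 18 cases and recruited macrophage genes in 2 of 17, and these were Chil3 and Arg1, which are also in the type 2 list. Of 25 complement genes 3 rose (C3, Hc and Cfb) and 0 fell, with a median of 0.24 that turned negative with median centring and was -0.20 with no normalization. Collagen and matrix genes rose in 3 of 44 cases (Timp1, Mmp14 and Ccn1) and fell in 1, Serpinf1, an inhibitor of angiogenesis, with a median of 0.12 that turned negative with median centring and was -0.39 with no normalization. Of all expressed genes 0.688% rose and 1.6% fell, and a single call in lists this short says little about the list.

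Cardiac muscle genes, which mark tissue of the large pulmonary veins or of the heart taken with the lobes, varied more between lungs than any epithelial list. All 29 were expressed, and the list level was -1.76 to 2.16 in controls and -1.85 to 0.09 at 18 µg. Of the 29, 28 lay below control at 18 µg with a median of -0.85, 0 passed the test in limma (0 higher and 4 lower at an unadjusted p under 0.05), and the median was -0.19 within the slides that held both groups and -1.42 without control replicate 1. Smooth muscle genes passed in 0 of 14 cases and genes of other tissues (fat, skin or oesophagus, thymus, liver and red cells) in 0 of 16, with medians of -0.30 and -0.32, and at an unadjusted p under 0.05 in limma 5 and 3 of them differed. The part of these tissues in other results was not tested. Among the reference genes, Hprt, Actb and Gapdh differed by 0.18, 0.34 and 0.52 (adjusted p = 0.439, 0.427 and 0.113), and Gapdh was above all controls in 6 of 6 lungs. The differences of Hprt and Actb turned negative with median centring (-0.23 and -0.15) and with no normalization (-0.39 and -0.31, with Gapdh at -0.00383), when the median of all genes was -0.42.

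**Figure D5:**
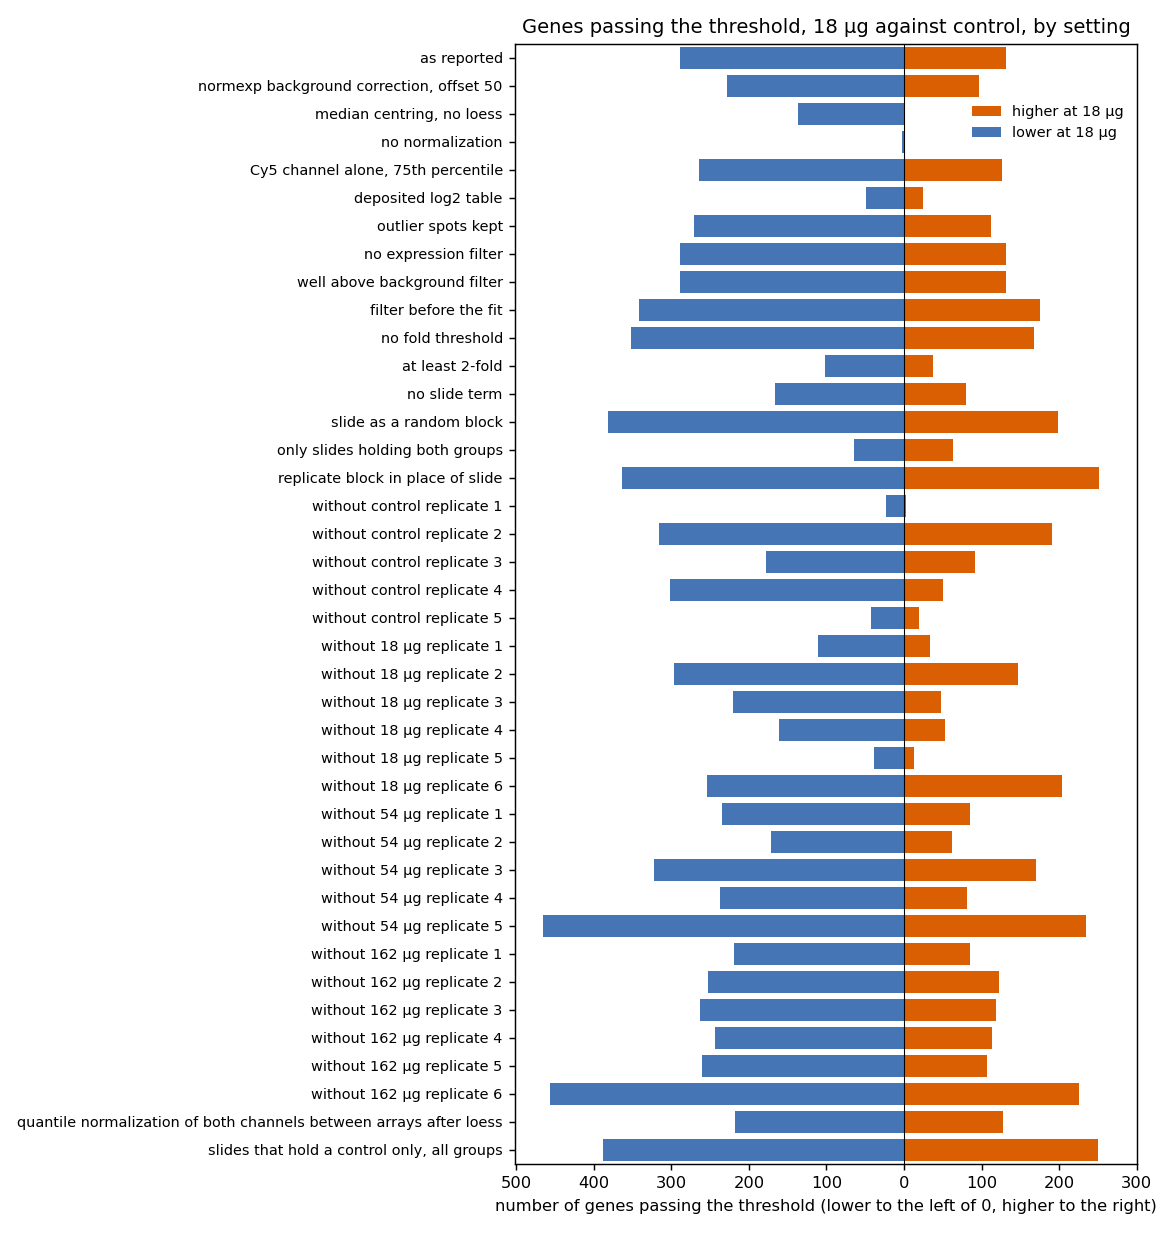
Number of genes that passed the threshold for 18 µg against control under each setting, lower genes to the left of 0 and higher genes to the right. The bars run from 2 genes with no normalization to 699 without 54 µg replicate 5, beside 420 as reported.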

How the data were processed

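Per the file headers, the deposited intensity values are median pixel signals of each spot and of its local background in both channels, written by Feature Extraction 10.7.3.1 with no background subtraction, and flags of other kinds mark outlier spots. The authors also deposited a log2 table of lung to reference ratios whose normalization is not given in the sources used here, and it served as an alternative. The number of arrays, and not a read depth, limits the precision.

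Spots with an outlier flag were dropped, each array's log2 ratios (Cy5 over Cy3) were corrected by loess (span 0.3), and replicate spots were summarised by their median, which gave 55681 probes. Of these, 26413 were named through RefSeq accessions, 659 by the study's own annotation, and 28609 stayed unnamed. A probe was expressed where, in 80% or more of a group's arrays, its Cy5 signal lay over 3 standard deviations above the mean of 308 negative control spots (both after 5% trimming), which left 39549 probes and 16708 named genes. Dose and slide were fixed effects in limma 3.58.1 (R 4.3.3, with the data.table package 1.17.8) over 22 arrays on 7 slides (12 residual degrees of freedom), with p-values adjusted over all probes after Benjamini and Hochberg. A gene passed, or was called, where the adjusted p did not exceed 0.05 and the fold reached 1.5. The code was tested on simulated data. A gene stands for its brightest expressed probe.

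Named are the 10 largest rises and the 10 largest falls among genes whose mice all lay beyond the controls, the 8 genes higher and 8 lower with the largest difference from the mean of the higher doses, up to 4 genes a list by smallest p, and 13 chosen names. Further members of a list or of the genes particular to the low dose are named where their list is spelled out, and were chosen by passing a test. Some genes that the rule or a list names are not reported here. The members, the 30 gene lists and the tests were chosen with earlier results of these data known. The labels number the samples of lung tissue, and reading them as separate mice rests on the study's methods.

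Alternatives covered background correction (normexp on median signals, offset 50), normalization, the Cy5 channel alone, the log2 table, filters, thresholds, the slide term and leaving out each lung. Chosen after seeing the data were quantile normalization of both channels, the fit on slides that hold a control, and the named genes against the mean of the higher doses.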

Additional observations from a re-analysis of the deposited data

Results flagged for a closer look

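Within groups of 5 or 6 lungs, the gap of the most extreme lung to its neighbour, as a share of the group's range, passed Dixon's limit for 15 values. Chance passes about 1 in 20 groups, and here 10 of 170 gene groups (5.88%) and 5 of 62 list groups (8.06%) did.

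Among the lists, 18 µg replicate 3 stood alone in club and secretory cells (share 0.661, at 0.31 against -0.79 in the nearest lung), and 18 µg replicate 1 in type I alveolar cells (0.896, -0.32 against 0.19). Control replicate 5 stood low for motile cilia (0.741, -0.17 against 0.01), control replicate 2 high for neutrophils (0.827, 1.56 against -0.24), and control replicate 1 low for replication-dependent histones (0.817, -0.57 against 0.05).

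Among the genes, control replicate 1 was apart for 3 histones, H2ac22 (0.805, -3.60 against -2.56), H3c14 (0.734, -3.82 against -2.71) and H4c12 (0.743, -1.46 against -0.75), and for Myb (0.73, 1.03 against 0.35). The histone H4c12 was also high in 18 µg replicate 3 (0.628, 0.66 against -0.08), as was Sdf2l1 (0.664, 3.00 against 0.76). Control replicate 4 was high for Aldh3a1 (0.859, 1.55 against 0.60) and low for Gapdh (0.752, -1.75 against -1.40). Control replicate 2 was low for Asf1b (0.732, -3.77 against -3.30), and control replicate 3 high for Lcn2 (0.778, 3.03 against 2.21). By array, 5 of the 15 values were of control replicate 1 and 3 of 18 µg replicate 3.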

How the results depend on the processing

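For 18 µg against control, the 420 genes became 137 with median centring, 2 with no normalization, 73 with the deposited log2 table, 138 at 2-fold or more, 245 with no slide term, 127 on the slides holding both groups, 127 with the groups compared alone and 637 on the slides that hold a control. With single lungs left out they numbered 26 to 699. The 1002 genes against 162 µg became 202 with median centring, 37 with no normalization, 300 at 2-fold or more and 1622 with no fold threshold (739 to 1124 with single lungs left out). The 503 against the mean of the higher doses became 187 with median centring, 87 with no normalization, 276 with the log2 table, 139 at 2-fold or more, 845 with no fold threshold, 294 on slides holding both groups and 266 on slides that hold a control (257 to 637 with single lungs left out). The 8 against 54 µg became 0 with median centring, no normalization, no slide term, the slides holding both groups, the groups compared alone and the slides that hold a control. They became 30 with the Cy5 channel alone, 3 with the log2 table, 4 with slide as a random block, 4 with quantile normalization of both channels and 1 with the replicate block (0 to 71 with single lungs left out). The cause was not tested.

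With the replicate block in place of slide, 613 genes differed at 18 µg (251 higher, 363 lower, 1 of them both), 298 of the 382 kept their call, and 1142 differed from 162 µg and 549 from the mean of the higher doses. The labels do not call the numbers pairs. Deviations of same-numbered control and 18 µg lungs correlated at 0.072 to 0.235, and 2 of 5 controls correlated best with their own number. Lungs that shared neither number nor slide correlated at -0.37 to 0.264 (24 pairs, median -0.0646). Of the same-numbered pairs 3 also shared a slide (0.166 to 0.235) and 2 did not (0.072 to 0.177). The part of number apart from slide was not tested.

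Signs that turned were those of Hprt (-0.226) and Actb (-0.153) with median centring, of Hprt (-0.388), Actb (-0.315), Ccl22 (-0.0945), Csf1 (-0.0965) and Gapdh (-0.00383) with no normalization, and of Ccl22 (-0.00625) with no slide term. Of 30 list medians, 11 turned with median centring, 16 with no normalization and at most 4 in any other alternative. The median of all genes at 18 µg was -0.26 with median centring and -0.42 with no normalization. Of the 382 genes, 382 kept their direction in every alternative but no normalization, where 378 did. These genes were chosen for their change in the same arrays, which made a kept direction likely. Quantile normalization of average intensities leaves log ratios as they are and gave 420.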
